A study of Mus musculus with 6 samples.

Results

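The genes described here are 10 known targets of the transcription factor p53, measured in mouse lung cells: Mdm2, Ccng1, Zmat3, Bax, Bbc3, Phlda3, Eda2r, Gdf15, Sesn2 and Trp53inp1. They were taken by gene name from the count table, where all 10 of 10 were found among 49315 genes. The lungs came from C57BL/6 mice that had received bleomycin sulfate (BLM) or sterile saline (sham) by oropharyngeal instillation 21 days earlier. The animals were male C57BL/6J mice, whose age is not given in the sources used here. Lungs were pooled by 2 to 3 in a tube, so animals cannot be separated. From each treatment 3 RNA libraries were sequenced: all lung cells (unsorted), cells without the lysosomal protein Lamp1 at the surface (Lamp1-depleted) and cells with it (Lamp1-enriched). There was 1 library for each of the 6 conditions, so no value below has a replicate error. The Lamp1 gate selects a mixture of lung cells and not a single cell type.

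p53 is kept low by Mdm2, a ubiquitin ligase that p53 itself induces, and it accumulates when DNA strands break. Bleomycin is a glycopeptide that cuts DNA, and in the mouse lung it is widely used to produce inflammation followed by fibrosis. The targets of p53 fall into groups by what they do. Mdm2, Ccng1 (cyclin G1) and Zmat3 (an RNA-binding zinc finger protein) feed back on p53 or on growth. Bax and Bbc3 (Puma) are Bcl-2 family proteins that open the way to apoptosis. Phlda3 restrains Akt signalling, and Eda2r is a TNF receptor family member for the ectodysplasin ligand Eda-A2. Gdf15 is a secreted stress cytokine, Sesn2 restrains mTORC1 and oxidative stress, and Trp53inp1 acts in autophagy and cell death. Gdf15 and Sesn2 are also known targets of Atf4, the transcription factor of the integrated stress response.

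p53 binds DNA at a site made of a pair of half-sites of 10 bases each, which may be separated by up to 13 bases. Because the half-site reads the same on both strands, 1 search covers both. RefSeq promoter sequences, which run from 250 bases before to 50 after a transcription start (build GRCm38.p6), were found by symbol for 8 of the 10 genes; Trp53inp1 and Zmat3 were not analysed here at the sequence level. The closest match to a p53 site in each promoter follows, because p53 control is what these genes are known for. Where a gene had more than 1 promoter, the match with the fewest mismatches was taken. Capitals mark the half-sites and lower case the bases between them. Ccng1 and Bax came within 1 mismatch of the 20 bases of the site, at chr11:40755462-40755481 and chr7:45467090-45467110 on the minus strand. The other matches were at chr7:16309486-16309505 (Bbc3, plus strand), chr10:117710923-117710944 (Mdm2, minus), chr1:135765951-135765983 (Phlda3, plus), chrX:97377411-97377431 (Eda2r, minus), chr8:70632644-70632664 (Gdf15, minus), chr4:132510673-132510703 (Sesn2, minus) and chr17:29090906-29090937 (Cdkn1a, plus).
Ccng1: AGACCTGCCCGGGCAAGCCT
Bax: AAGCATATCCcAGGCAAGCTT
Bbc3: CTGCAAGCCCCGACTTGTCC
Mdm2: GAACTTGCCTagCGACCATTGC
Phlda3: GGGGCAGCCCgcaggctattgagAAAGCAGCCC
Eda2r: AGATTAGGCTaGATCTAACTT
Gdf15: GGAGTGGTCTgGAATCAGTTT
Sesn2: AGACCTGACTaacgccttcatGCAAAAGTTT
Cdkn1a: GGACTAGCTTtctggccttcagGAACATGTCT
The site of Cdkn1a, which encodes p21, is given for comparison and had 0 mismatches. A match with at most 1 mismatch was present in 1.09% of 32851 promoters, and one with 0 mismatches in 0.0731%. Bbc3 had 3 mismatches, and 45.1% of all promoters held a match with at most 3. Mdm2, Phlda3, Eda2r, Gdf15 and Sesn2 had 4, and 89.3% of promoters held a match with at most 4. These shares count single promoters. Bbc3, Gdf15 and Cdkn1a had more than 1 promoter each, so for them the shares are not a like measure. A match is a description of letters in this window and says nothing about whether p53 binds there.

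The 250 bases before the transcription start of the pair with the closest sites are printed with the site in capitals, to show its position. In Ccng1 (chr11:40755287-40755536, minus strand) the site began 195 bases before the start, and in Bax (chr7:45466899-45467148, minus strand) 212 bases before it.
Ccng1: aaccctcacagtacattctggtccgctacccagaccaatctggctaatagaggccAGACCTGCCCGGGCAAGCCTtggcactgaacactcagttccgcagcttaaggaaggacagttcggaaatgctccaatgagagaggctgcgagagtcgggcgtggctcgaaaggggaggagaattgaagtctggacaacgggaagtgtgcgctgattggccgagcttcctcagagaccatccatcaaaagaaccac
Bax: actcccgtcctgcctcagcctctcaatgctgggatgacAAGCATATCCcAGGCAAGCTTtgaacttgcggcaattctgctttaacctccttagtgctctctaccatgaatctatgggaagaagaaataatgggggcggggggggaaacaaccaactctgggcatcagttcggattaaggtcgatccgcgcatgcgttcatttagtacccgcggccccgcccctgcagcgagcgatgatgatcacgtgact

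Counted reads per library ranged from 30236120 in BLM Lamp1-depleted to 52918696 in BLM Lamp1-enriched cells. The BLM Lamp1-depleted library stood apart: 38.4% of its reads fell on the single gene Gm26917, against at most 7.10% elsewhere, which left 18636423 reads for all other genes. Levels are given as CPM, read counts scaled to a common library size, after edgeR TMM scaling, which adjusts the total for such a gene. Differences are log2 ratios of 2 libraries, computed with 0.5 reads added and followed by a 95% interval in parentheses that covers counting error only, so that each compares the libraries and not the conditions. A gene was compared when the higher library had at least 10 reads, and it was counted as higher or lower when the log2 ratio reached 1 or -1, that is 2-fold. Markers of lung cell types differed between the fractions. The 8 endothelial markers summed to 8520 CPM in sham Lamp1-enriched and 8050 in BLM Lamp1-enriched cells, against 1240 and 842 in Lamp1-depleted cells, and the 5 B cell markers ran the other way, with 143 and 55.3 against 2660 and 1100. In such mixtures, fewer cells of a type and less RNA per cell cannot be told apart.

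Every one of the 10 genes was detected in all 6 libraries, from 23 reads for Gdf15 and Eda2r at the lowest to 13982 for Trp53inp1 at the highest. Per kilobase of exon (RPKM, from the union of annotated exons in GENCODE M21), the order in sham unsorted cells was Phlda3 at 29.5, Ccng1 at 26.7, Trp53inp1 at 18.5, Mdm2 at 15.0, Bax at 10.4, Bbc3 at 4.79, Zmat3 at 2.93, Sesn2 at 1.94, Gdf15 at 1.53 and Eda2r at 0.654. In BLM unsorted cells the order at the top was Ccng1 at 46.1, Phlda3 at 32.6 and Mdm2 at 25.5, and Gdf15 had moved from the ninth to the fourth place with 18.7. The spread between libraries separated the genes. The highest library over the lowest was 68.6-fold for Gdf15, 13.2-fold for Eda2r and 11.6-fold for Phlda3, but only 1.67-fold for Bax and 1.58-fold for Bbc3. No single library held the maximum of all genes: BLM unsorted was highest for Ccng1, Bax and Gdf15, BLM Lamp1-depleted for Mdm2, Sesn2 and Bbc3 (for Bbc3 12.4 CPM, next to 12.3 in BLM Lamp1-enriched), BLM Lamp1-enriched for Phlda3, Eda2r and Zmat3, and sham Lamp1-depleted for Trp53inp1.

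**Figure D1:**
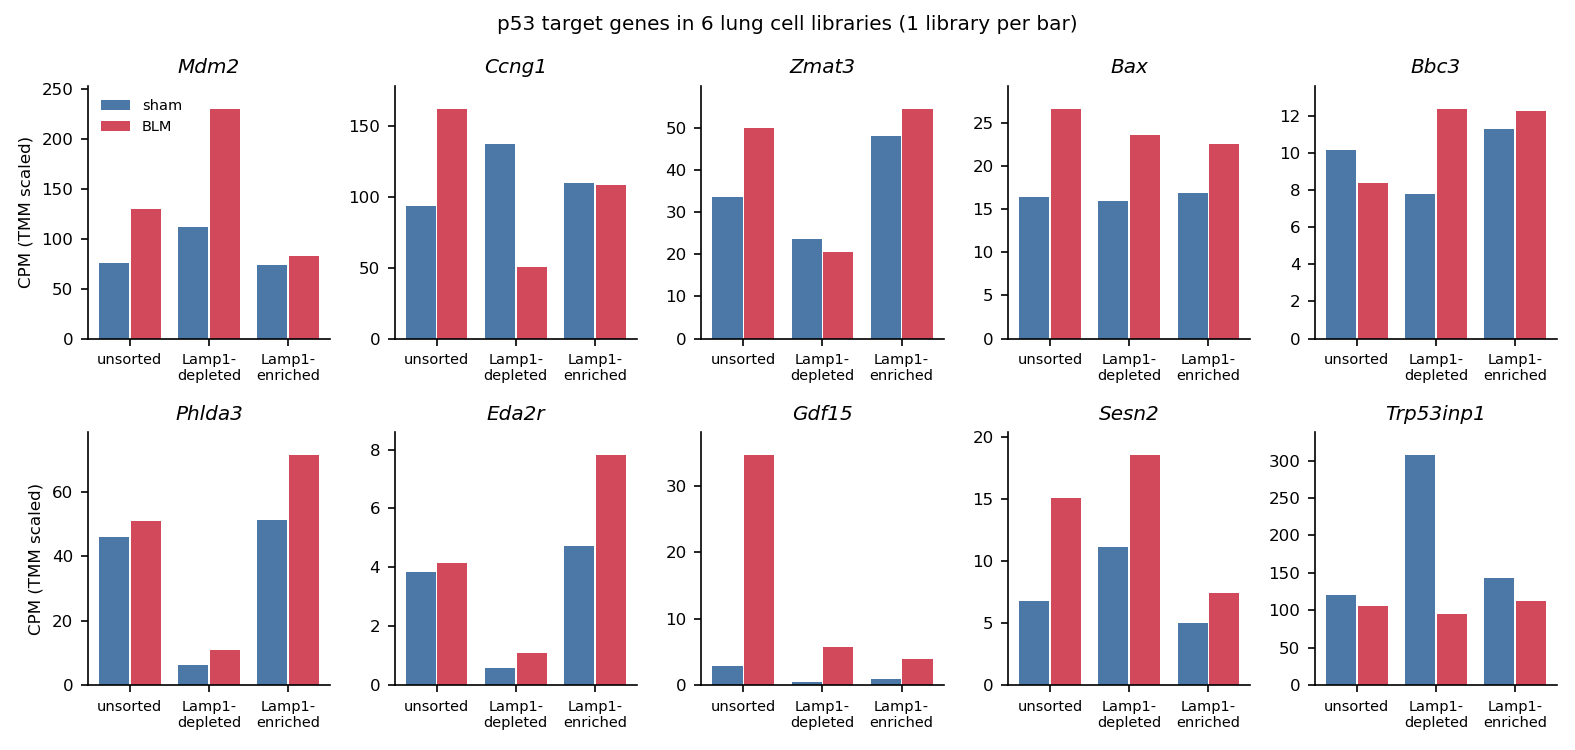
Level of each p53 target gene (CPM after TMM scaling, linear axis from 0, a separate axis for each gene) in the 3 cell fractions of sham-treated (blue) and BLM-treated (red) lungs; each bar is 1 library and has no error bar. Gdf15 stands at 34.6 CPM in BLM unsorted cells and at most 5.78 elsewhere, while Phlda3 and Eda2r are low in both Lamp1-depleted libraries.

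Unsorted cells were compared first, to see which targets differed in the whole lung suspension 21 days after BLM. Gdf15 and Sesn2 were more than 2-fold higher in BLM, Mdm2, Ccng1, Bax and Zmat3 were between 1.49-fold and 1.73-fold higher, and Phlda3, Eda2r, Trp53inp1 and Bbc3 lay within 1.21-fold of sham. The 2 genes past 2-fold upward made up 2 of 10, against 13.9% of the 22772 genes compared, and 0 of 10 were past it downward, against 16.0%. The median log2 ratio of the 10 genes was 0.64, where that of all compared genes was -0.07.

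Gdf15 (chr8:70629393-70632456, minus strand) had 138 reads or 2.84 CPM in sham and 1366 reads or 34.6 CPM in BLM unsorted cells, a log2 ratio of 3.60 (3.35 to 3.87), or 12.1-fold. Sesn2 (chr4:132492032-132510501, minus strand) went from 6.74 to 15.1 CPM, a log2 ratio of 1.16 (0.97 to 1.36), which was 0.90 when scaled by total counts only and so fell short of 2-fold there. In unsorted cells these were the largest ratios among the targets described here, and both genes are also known targets of Atf4. Atf4 itself had a log2 ratio of -0.49 between these libraries. Its part in the Gdf15 and Sesn2 ratios was not tested. Markers of other cells differed between the same libraries: the 5 markers of scar-associated macrophages (Spp1, Gpnmb, Trem2, Mmp12 and Fabp5, all above 3 reads in every library) summed to 87.9 CPM in sham and 4550 CPM in BLM unsorted cells, with 5 of 5 past 2-fold upward. The 6 alveolar macrophage markers found summed to 578 and 2140 CPM, but they did not move together: 4 were higher, with Chil3 at 313 and 1750 CPM making up most of the sum, and Car4 and Krt79 were lower, with log2 ratios of -0.55 and -1.77. Their part in the Gdf15 and Sesn2 ratios was not tested.

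Among the feedback genes, Mdm2 (chr10:117688875-117710758, minus strand) had 76.1 CPM in sham and 130 CPM in BLM unsorted cells, a log2 ratio of 0.77 (0.71 to 0.83). Ccng1 (chr11:40748552-40755311, minus strand) was close to it, with 93.6 and 162 CPM and a log2 ratio of 0.79 (0.74 to 0.85). For Zmat3 (chr3:32334792-32366014, minus strand) 33.5 and 49.9 CPM gave 0.57 (0.48 to 0.67). All 3 were higher in BLM by less than 2-fold. The apoptosis pair did not move together: Bax (chr7:45461697-45466898, minus strand) had 16.4 and 26.6 CPM, a log2 ratio of 0.70 (0.56 to 0.83), whereas Bbc3 (chr7:16308393-16318205, plus strand) had 10.2 and 8.39 CPM, a log2 ratio of -0.28 (-0.48 to -0.07). Of the exon bases of Bax, 12.2% also belong to the overlapping gene Gm45808, which had 0 reads in every library.

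Phlda3 (chr1:135766119-135769136, plus strand) had 45.9 CPM in sham and 50.8 CPM in BLM unsorted cells, a log2 ratio of 0.14 (0.06 to 0.23) that became -0.12 with total counts only and -0.03 with totals outside Gm26917. Eda2r (chrX:97333840-97377216, minus strand), at 3.85 and 4.16 CPM, gave 0.11 (-0.20 to 0.42), also negative under those scalings, at -0.15 and -0.07. Trp53inp1 (chr4:11156431-11174379, plus strand), at 120 and 106 CPM, gave -0.17 (-0.23 to -0.11). For these 3 genes the unsorted libraries differed by at most 1.12-fold.

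**Figure D2:**
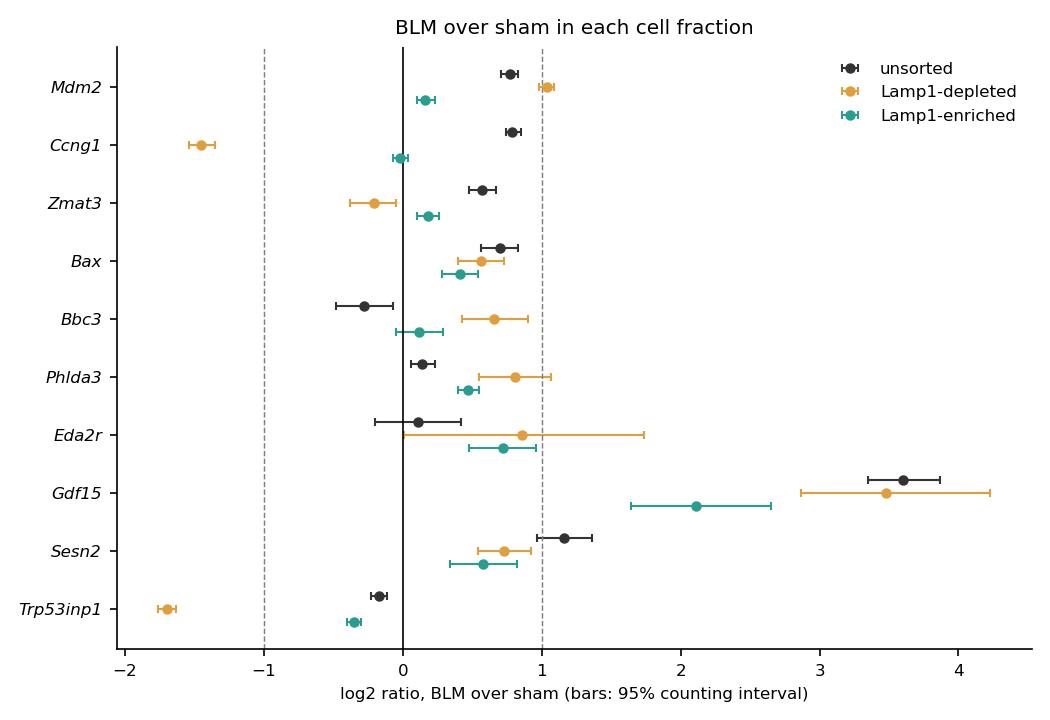
Log2 ratio of BLM over sham for each gene in unsorted (black), Lamp1-depleted (orange) and Lamp1-enriched cells (green), after TMM scaling; bars are 95% counting intervals of 1 library against 1, and dashed lines mark 2-fold. Gdf15 lies above the upper line in all 3 fractions, and Ccng1 and Trp53inp1 lie below the lower line in Lamp1-depleted cells.

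In Lamp1-depleted cells the 10 genes split. Gdf15 and Mdm2 were at least 2-fold higher in BLM than in sham and Ccng1 and Trp53inp1 at least 2-fold lower, and 5 others were 1.48-fold to 1.82-fold higher. That made 2 of 10 upward, against 13.7% of 20852 compared genes, and 2 of 10 downward, against 22.3%. The median of the 10 genes was 0.70, and that of all compared genes was -0.20. These values rest on the library in which Gm26917 took 38.4% of the reads. With total counts only, every ratio in this comparison was lower by 0.72, the median of the 10 genes was -0.02, and Bax and Bbc3 turned from 0.56 and 0.66 to -0.16 and -0.06.

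Both genes that were lower had ratios far from those of unsorted cells. Trp53inp1 had its highest level of all, 307 CPM from 13982 reads, in sham Lamp1-depleted cells and 94.6 CPM from 1999 reads in the BLM counterpart, a log2 ratio of -1.70 (-1.76 to -1.63), or 3.24-fold lower. Ccng1 had 137 and 50.2 CPM, a log2 ratio of -1.45 (-1.54 to -1.35), or 2.72-fold lower, where unsorted cells had been 1.73-fold higher. Lymphocyte markers differed between these libraries too: the 5 B cell markers summed to 2660 CPM in sham and 1100 in BLM, the 7 T cell markers to 482 and 384, and the 5 NK cell markers to 123 and 43.3, with no marker at 3 reads or fewer. Among the T cell markers, 1 (Lck, 0.58) was higher in BLM. Other lists were higher in BLM Lamp1-depleted cells: the 5 neutrophil markers summed to 45.0 and 320 CPM and the 5 scar-associated macrophage markers to 16.0 and 337 CPM, with 5 of 5 past 2-fold in each. The part of these cells in the ratios of the 10 genes, Mdm2 and Gdf15 included, was not tested.

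Mdm2 was the reverse of Ccng1 here. It had 112 CPM in sham and 230 CPM in BLM Lamp1-depleted cells, its highest level, and a log2 ratio of 1.04 (0.98 to 1.09), which was 0.96 with totals outside Gm26917 and 0.32 with total counts only. Gdf15 rested on few reads, 23 in sham and 122 in BLM, or 0.505 and 5.78 CPM, and its log2 ratio of 3.48 (2.87 to 4.23) was close to the one of unsorted cells. Sesn2 gave 0.73 (0.54 to 0.92), Phlda3 0.81 (0.55 to 1.07), Eda2r 0.86 (0.01 to 1.74, from 27 and 23 reads), and Zmat3 -0.21 (-0.38 to -0.05).

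In Lamp1-enriched cells the log2 ratio of BLM over sham was nearer to 0 than in the other fractions for 7 of the 10 genes, and Gdf15 alone passed 2-fold. It had 41 reads or 0.891 CPM in sham and 212 reads or 3.89 CPM in BLM, a log2 ratio of 2.11 (1.64 to 2.65), or 4.33-fold. The count was 1 of 10 upward, against 10.2% of 21671 compared genes, and 0 of 10 downward, against 7.86%, shares close to those of the 10 genes. The median of the 10 genes was 0.30, where all compared genes had 0.00. With total counts only each ratio shifted by 0.01.

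Below 2-fold, the receptor Eda2r and the Akt repressor Phlda3 were higher in BLM Lamp1-enriched cells, in contrast to the unsorted cells. Eda2r had 218 reads in sham and 425 in BLM, or 4.74 and 7.80 CPM, a log2 ratio of 0.72 (0.48 to 0.96). Phlda3 had 51.3 and 71.2 CPM and a log2 ratio of 0.47 (0.40 to 0.55). Sesn2, at 4.96 and 7.41 CPM, gave 0.58 (0.34 to 0.82), and Bax, at 16.9 and 22.5 CPM, gave 0.41 (0.28 to 0.54). Mdm2 and Ccng1, which had been 1.70-fold and 1.73-fold higher in unsorted cells, were near sham levels, with log2 ratios of 0.16 (0.10 to 0.23) and -0.02 (-0.07 to 0.04). Zmat3 gave 0.18 (0.10 to 0.26), Bbc3 0.12 (-0.05 to 0.29) and Trp53inp1 -0.35 (-0.40 to -0.30). Between the same libraries the 7 fibroblast markers went from 178 to 719 CPM, carried by Col1a1 (47.0 and 444 CPM) and Col1a2 (38.9 and 195 CPM), while Pdgfra and Tcf21 were lower, with log2 ratios of -0.69 and -1.44. The 8 endothelial markers went from 8520 to 8050 CPM. The part of these cells in the ratios of the 10 genes was not tested.

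Across the 3 fractions, Gdf15, Sesn2, Bax and Mdm2 were higher in BLM each time with intervals above 0, except that with total counts only, in Lamp1-depleted cells, Bax turned to -0.16 and Sesn2 came to 0.01. Trp53inp1 was lower each time. Bax was the steadiest, with ratios of 0.70, 0.56 and 0.41 and levels between 22.5 and 26.6 CPM in the BLM libraries against 15.9 to 16.9 CPM in the sham libraries. The 3 fractions are different cell mixtures and not replicates. The 3 libraries of Mdm2 in BLM spanned 82.6 to 230 CPM and overlapped the sham range of 73.9 to 112 CPM.

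Lamp1-enriched cells were then compared with Lamp1-depleted cells, which asks how the targets sort with surface Lamp1. In both treatments Phlda3 and Eda2r were 6.59-fold to 8.31-fold higher with surface Lamp1 and Zmat3 was 2.03-fold and 2.66-fold higher, whereas Sesn2 was 2.24-fold and 2.49-fold lower. In sham, 3 of 10 genes were past 2-fold upward, against 27.5% of 21867 compared genes, and 2 of 10 downward, against 25.2%. In BLM it was 4 of 10 upward, against 34.3% of 21838, and 2 of 10 downward, against 22.6%. These shares are near those of all genes. The medians of the 10 genes were 0.31 in sham and 0.12 in BLM, beside -0.01 and 0.29 for all compared genes.

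Phlda3 had 6.16 CPM in sham Lamp1-depleted and 51.3 CPM in sham Lamp1-enriched cells, and 10.8 and 71.2 CPM in the BLM pair. Its log2 ratios were 3.05 (2.88 to 3.24) and 2.72 (2.53 to 2.92). Eda2r had 0.592 and 4.74 CPM in sham and 1.09 and 7.80 CPM in BLM, with log2 ratios of 2.98 (2.42 to 3.63) and 2.83 (2.24 to 3.51). Both enriched libraries of these genes lay above both depleted ones, and both unsorted libraries lay above both depleted ones. In BLM the unsorted levels, 50.8 CPM for Phlda3 and 4.16 CPM for Eda2r, were below the enriched ones. Zmat3, with 23.7 and 48.0 CPM in sham and 20.4 and 54.4 CPM in BLM, gave 1.02 (0.91 to 1.13) and 1.41 (1.27 to 1.56). Endothelial markers ran in the same direction, as given above. So did the 7 fibroblast markers (68.9 and 178 CPM in sham, 166 and 719 CPM in BLM, depleted and enriched). Of these, 6 of 7 were higher in Lamp1-enriched cells in each treatment. Other lists had higher sums there too. Among them were alveolar type 1 markers (43.6 and 375 CPM in sham, 66.9 and 207 CPM in BLM). Smooth muscle and pericyte markers (24.9 and 198 CPM in sham, 28.3 and 129 CPM in BLM) and platelet markers (36.5 and 907 CPM in sham) were others. Sums of T cell, B cell, NK cell and neutrophil markers ran the other way in both treatments. The 5 neutrophil markers did not move together in sham: S100a8 was higher in Lamp1-enriched cells, with a log2 ratio of 0.46. The other 4 were lower there, 1 of them past 2-fold. No marker of these lists was at 3 reads or fewer, and their part in the ratios was not tested.

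Sesn2 and Mdm2 were higher in Lamp1-depleted cells. Sesn2 had 11.1 CPM in depleted and 4.96 CPM in enriched cells of sham, and 18.5 and 7.41 CPM in BLM, with log2 ratios of -1.16 (-1.40 to -0.94) and -1.32 (-1.52 to -1.11). Mdm2 gave -0.61 (-0.67 to -0.54) in sham and -1.48 (-1.54 to -1.42) in BLM. Bax did not differ by more than counting error in either treatment, with 0.08 (-0.06 to 0.23) and -0.07 (-0.22 to 0.09), though its sign changed with total counts only (-0.09 and 0.49). Ccng1 went from -0.32 (-0.37 to -0.26) in sham to 1.11 (1.02 to 1.21) in BLM, Trp53inp1 from -1.10 (-1.14 to -1.05) to 0.25 (0.17 to 0.32), and Gdf15 from 0.81 (0.05 to 1.62) to -0.57 (-0.90 to -0.24). Bbc3 gave 0.53 (0.33 to 0.73) and -0.01 (-0.22 to 0.20).

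**Figure D3:**
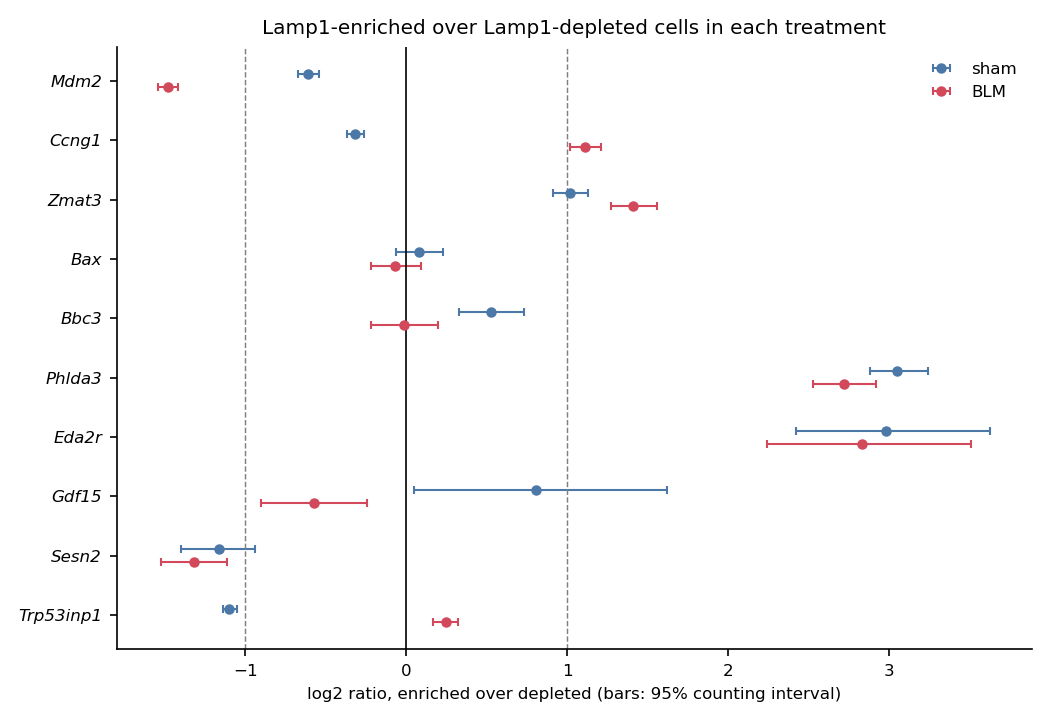
Log2 ratio of Lamp1-enriched over Lamp1-depleted cells in sham-treated (blue) and BLM-treated (red) mice after TMM scaling; bars are 95% counting intervals of 1 library against 1, and dashed lines mark 2-fold. Phlda3 and Eda2r lie between 2.72 and 3.05 in both treatments, while Ccng1, Trp53inp1 and Gdf15 change side of 0 between them.

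The sorting difference was measured in both treatments and was tested over the 4 sorted libraries with the edgeR quasi-likelihood test, treatment as a block and Benjamini-Hochberg adjustment over 20593 genes. Of the 10 genes 3 were called higher in Lamp1-enriched cells, against 21.5% of all tested genes, and 2 lower, against 19.2%. Phlda3 rose by a log2 ratio of 2.79 (adjusted p = 6.8e-13, edgeR), Eda2r by 2.82 (adjusted p = 2.9e-06) and Zmat3 by 1.12 (adjusted p = 0.0043), each higher in 2 of 2 treatments. Sesn2 fell by 1.34 (adjusted p = 0.0032, edgeR) and Mdm2 by 1.14 (adjusted p = 0.0054), each lower in 2 of 2. The other 5 genes were not called, with edgeR adjusted p between 0.26 for Trp53inp1 and 0.97 for Gdf15. The fit has 1 residual degree of freedom and a spread pooled over all genes. With total counts only the calls of Zmat3, Sesn2 and Mdm2 were lost (edgeR adjusted p = 0.14, 0.28 and 0.49), and those of Phlda3 and Eda2r were not.

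Each sorted fraction was also set against the unsorted cells of its treatment. Lamp1-enriched cells differed from unsorted cells past 2-fold for few of the 10 genes: in sham 0 were higher, against 2.63% of compared genes, and 1, Gdf15, was lower, against 15.9%. In BLM 0 were higher, against 12.6%, and 2, Gdf15 and Sesn2, were lower, against 19.1%. Lamp1-depleted cells were further from unsorted cells. In sham Trp53inp1 was higher, 1 of 10 against 18.3%, and Gdf15, Phlda3 and Eda2r were lower, 3 of 10 against 30.4%. In BLM 0 were higher, against 16.8%, and 5 of 10 were lower, against 33.6%: Ccng1, Gdf15, Phlda3, Eda2r and Zmat3. Trp53inp1, 2.56-fold higher than unsorted in sham Lamp1-depleted cells with a log2 ratio of 1.36 (1.31 to 1.40), had -0.17 (-0.25 to -0.09) in BLM. Ccng1 had 0.55 (0.49 to 0.60) in sham and -1.69 (-1.79 to -1.60) in BLM. Eda2r, near its unsorted level in sham Lamp1-enriched cells at 0.30 (0.01 to 0.59), had 0.91 (0.64 to 1.18) in BLM.

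Gdf15 was the only one of the 10 genes whose level in unsorted cells was more than 2-fold above both sorted fractions, which it was in sham and in BLM. In BLM the unsorted cells had 34.6 CPM, against 5.78 in Lamp1-depleted and 3.89 in Lamp1-enriched cells, log2 ratios of the fractions over unsorted cells of -2.58 (-2.86 to -2.32) and -3.15 (-3.37 to -2.94). In sham the levels were 2.84, 0.505 and 0.891 CPM. Of all genes with at least 10 reads in 1 of the 3 libraries, 8.51% showed this pattern in BLM and 7.58% in sham. The scar-associated macrophage markers also had their highest sum in BLM unsorted cells, 4550 CPM against 337 in depleted and 611 in enriched cells, as had the alveolar macrophage markers, 2140 against 205 and 354 CPM. Their part in the Gdf15 level was not tested.

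The rest of the pathway was read from lists of p53 and 15 of its regulators and of 44 other targets, of which 43 had enough reads. In unsorted cells 25 of these 43 targets were above 0 and 18 below, with a median log2 ratio of 0.31, beside -0.07 for all compared genes. At 2-fold 8 were higher in BLM (18.6%, against 13.9% of all genes) and 0 lower (against 16.0%). They were Gtse1, Plk3, Steap3, Spata18, Perp, Cdkn1a, Gpx1 and Dram1, listed after their values were seen. In Lamp1-depleted cells 6 were higher (14.0%, against 13.7% of all genes) and 5 lower (11.6%, against 22.3%). The median there was 0.08, beside -0.20 for all compared genes. In Lamp1-enriched cells only Gtse1, a gene expressed in dividing cells, passed 2-fold upward (2.33%, against 10.2% of all genes). Downward it was 0, against 7.86%, and the median was 0.04, beside 0.00 for all compared genes. The group of 16 metabolism and membrane traffic targets had the highest median of the 3 target groups in unsorted cells, 0.55, against 0.14 for arrest and repair and 0.05 for cell death. In the sorted fractions the same group had the lowest median. It was 0.01 in Lamp1-depleted cells, against 0.09 and 0.16, and -0.03 in Lamp1-enriched cells, against 0.04 and 0.12.

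At the RNA level, which does not measure the protein, p53 itself (Trp53) differed little. Its level was 34.8 CPM in sham and 47.3 CPM in BLM unsorted cells, a log2 ratio of 0.44 (0.35 to 0.54), with 0.16 (0.08 to 0.25) in Lamp1-depleted and 0.14 (0.05 to 0.22) in Lamp1-enriched cells. Mdm4, which blocks p53 beside Mdm2, gave -0.05 (-0.11 to 0.00), 0.11 (0.06 to 0.16) and 0.17 (0.12 to 0.23) in the same order. Cdkn1a, the cell cycle inhibitor p21, was higher in BLM in every fraction: 66.3 and 144 CPM in unsorted cells, a log2 ratio of 1.11 (1.05 to 1.18), 25.2 and 65.7 CPM in Lamp1-depleted cells, 1.38 (1.27 to 1.5), and 59.6 and 113 CPM in Lamp1-enriched cells, 0.93 (0.86 to 0.99). Blmh, the hydrolase that inactivates bleomycin, gave 0.19, -0.36 and 0.09. p53 and its regulators had medians of 0.02, -0.11 and 0.06, close to those of all genes. In unsorted cells 2 of the 16 were past 2-fold upward, against 13.9% of compared genes, and 0 downward, against 16.0%. They were Chek2 at 1.40 (1.16 to 1.64) and Chek1 at 1.26 (0.86 to 1.69). In Lamp1-depleted and Lamp1-enriched cells 0 passed 2-fold upward, against 13.7% and 10.2%, and 0 downward, against 22.3% and 7.86%. The 5 markers of proliferating cells summed to 27.9 CPM in sham and 173 CPM in BLM unsorted cells, with 5 of 5 past 2-fold upward. Their part in the Chek2 and Chek1 ratios was not tested.

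A pair of neighbouring gene groups was set beside the targets. Of 16 genes of the integrated stress response with enough reads, 4 were past 2-fold upward and 3 downward in unsorted cells, against 13.9% and 16.0% of all compared genes, with a median of 0.23. Slc7a11, the cystine transporter, had the largest ratio among them, 3.06, and Vldlr the smallest, -1.53. Its transcription factors, named after their values were seen, went different ways in unsorted cells: Atf4 gave -0.49, Ddit3 (Chop) -0.55, Atf5 -1.15, Atf3 0.08 and Cebpb 2.20. In Lamp1-depleted cells Atf4 gave 0.20 and Ddit3 0.72. In Lamp1-enriched cells the same list had 2 genes past 2-fold upward and 0 downward, against 10.2% and 7.86%, with a median of 0.31 and Slc7a11 at 2.24. Of 14 other Bcl-2 family genes, 4 were past 2-fold upward and 1 downward in unsorted cells, against the same 13.9% and 16.0%, with a median of 0.87, from Bcl2a1b at 2.01 to Bik at -1.06. The 4 were Bok and the Bcl2a1 genes Bcl2a1a, Bcl2a1b and Bcl2a1d, listed after their values were seen. The median of the family was -0.32 in Lamp1-depleted and 0.18 in Lamp1-enriched cells, beside -0.20 and 0.00 for all compared genes.

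**Figure D4:**
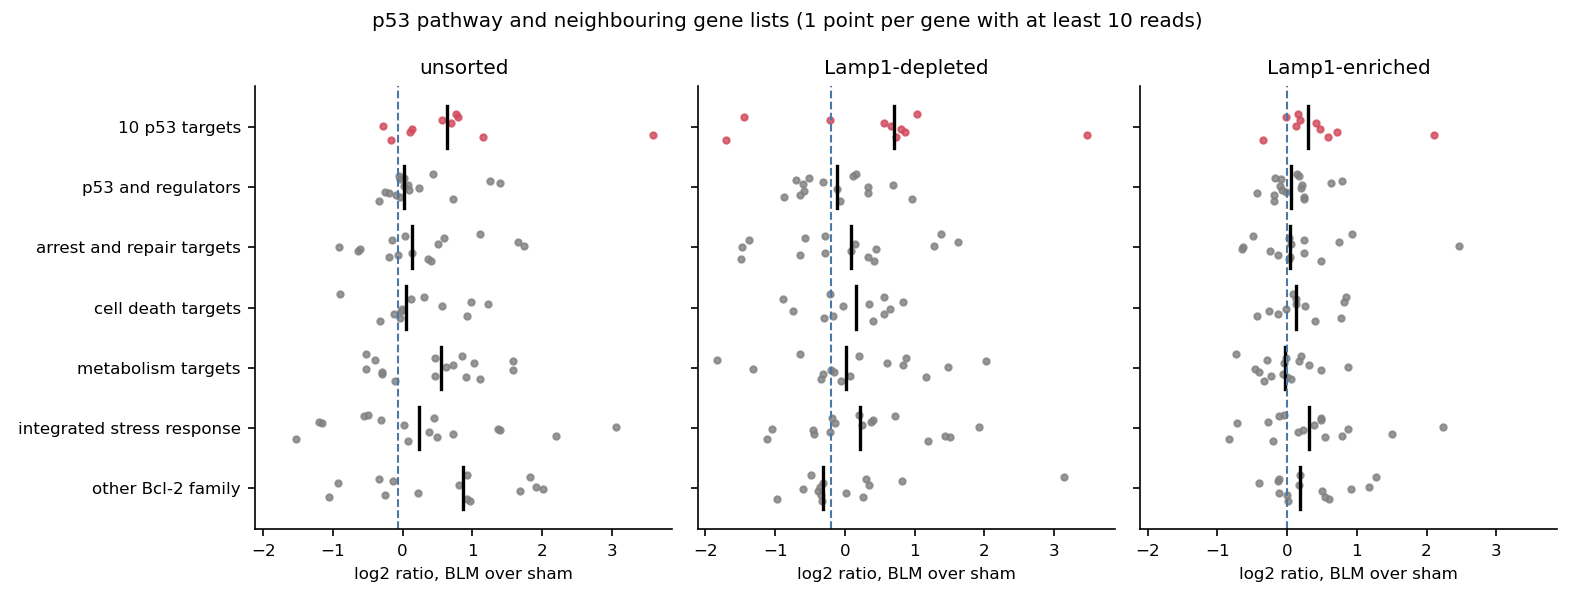
Log2 ratio of BLM over sham for the 10 p53 targets (red) and for the other gene lists (grey) in the 3 cell fractions; each point is 1 gene with at least 10 reads, black bars are list medians and the dashed blue line is the median of all compared genes. The 10 targets have medians of 0.64, 0.70 and 0.30. The median of p53 with its regulators stays near that of all genes, while 2 of these 16, Chek2 and Chek1, pass 2-fold upward in unsorted cells.

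Partners of the members were read as well. Eda, the gene of the Eda2r ligand, had 107 reads in sham and 30 in BLM unsorted cells, 2.20 and 0.760 CPM, a log2 ratio of -1.52 (-2.17 to -0.94), and between 10 and 41 reads in the sorted libraries. Gfral, which encodes the receptor of Gdf15, had at most 3 reads in any library, the floor below which no ratio is given.

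In the lists of other p53 targets, the sorting test called genes in both directions. For Lamp1-enriched cells 2 of 15 arrest and repair genes were higher and 5 lower, 3 of 12 cell death genes higher and 4 lower, and 3 of 16 metabolism and membrane traffic genes higher and 3 lower. Of all tested genes 21.5% were called higher and 19.2% lower. Among those called higher, Fas, a death receptor, had 2.53 (adjusted p = 2.9e-11, edgeR) and Cdkn1a 0.92 (adjusted p = 0.02). Among those called lower, Ddb2, a DNA damage recognition protein, had -2.75 (adjusted p = 1.5e-11, edgeR). Trp53 itself was not called, at -0.78 (adjusted p = 0.053, edgeR), and Mdm4 was lower, at -1.04 (adjusted p = 0.013).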

How the data were processed

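The authors deposited raw counts of reads for each Ensembl gene, without normalization. The submitters' processing notes name Trimmomatic 0.36, STAR 2.5.2b, featureCounts, Subread 1.5.2 and DESeq2, and the build GRCm38, without saying what each was used for; the annotation and the strand setting are not given in the sources used here. Reads were 2 x 150 bp.

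Libraries were scaled by TMM (edgeR 4.0.16, R 4.3.3). Ratios and Clopper-Pearson intervals of the share of reads were computed in Python 3.11.15 with scipy 1.17.1. BLM against sham has 1 library per arm and no p-value. For the sorted fractions, an edgeR quasi-likelihood fit used filterByExpr, treatment as a block and a threshold of 0.05. Whether both fractions of a treatment came from the same tube is not stated. The prior degrees of freedom were infinite and the biological coefficient of variation 0.316, so its p-values rest on a spread pooled over all genes. They do not measure each gene's own spread. The 1 residual degree of freedom holds how the sorting difference varied between sham and BLM, not between animals. Positions and exon lengths come from GENCODE M21, in which 49056 of the table's identifiers were found.

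The 10 genes, the lists and the tests were chosen with earlier results of these data known. Named genes outside the 10 are Trp53, Mdm4, Cdkn1a and Blmh, the genes with the largest and smallest ratio in a list among those with at least 50 reads, and genes said to be chosen after their values were seen. Gm26917, Chek1, Atf4, Ddit3, Atf5, Atf3, Cebpb, Eda, Gfral and the single marker genes given with values are such genes.

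On simulated counts for BLM over sham in unsorted cells (21509 genes), 95.7% of 21309 unchanged genes had the true ratio inside the interval. These counts were drawn with counting error only, so the share says nothing about variation between animals. For the sorting test (20725 genes), 62 of 100 genes changed 4-fold and 100 of 100 changed 16-fold were recovered, with 8 unchanged genes called. There each gene was drawn independently with the same spread for all genes. Alternatives were DESeq2 1.42.0 size factors and its Wald test, total counts, totals outside Gm26917, thinned counts, a prior count of 2, other read minimums and other folds.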

Additional observations from a re-analysis of the deposited data

Results flagged for a closer look

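Several genes differed in direction between fractions or treatments with counting intervals on opposite sides of 0. With 1 library per condition, none of these differences between groups was tested. In BLM over sham, Ccng1 had a log2 ratio of 0.79 in unsorted and -1.45 in Lamp1-depleted cells, and Zmat3 had 0.57 in unsorted and -0.21 in Lamp1-depleted cells, against 0.18 in Lamp1-enriched cells. Bbc3 had -0.28 in unsorted and 0.66 in Lamp1-depleted cells. In Lamp1-enriched over Lamp1-depleted cells, Ccng1 had -0.32 in sham and 1.11 in BLM, Trp53inp1 had -1.10 and 0.25, and Gdf15 had 0.81 and -0.57. The signs stayed opposite under 5 of 5 other scalings, thinnings or prior counts for each pair except Bbc3, where it was 4 of 5 (with total counts only, Lamp1-depleted cells gave -0.06). Every pair uses the BLM Lamp1-depleted library, in which Gm26917 took 38.4% of the reads; its part in them was not tested.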

How the results depend on the processing

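Most counts of genes past a threshold kept their value or stayed within 1.5 times of it (79 of 97), and 18 moved. For BLM over sham, the 2 genes higher in unsorted cells became 1 with total counts only, with totals outside Gm26917 and at 4-fold, and 5 at 1.5-fold; the 2 higher in Lamp1-depleted cells became 1, 1, 1 and 6 under the same settings, and the 2 lower there became 0 at 4-fold. The 1 higher in Lamp1-enriched cells became 2 at 1.5-fold. For Lamp1-enriched over Lamp1-depleted cells, the 2 lower genes became 0 at 4-fold in sham, and 0 with total counts only and at 4-fold in BLM, where the 4 higher became 2 at 4-fold. With unsorted in place of Lamp1-depleted cells, an alternative added after seeing the data, the 3 and 4 higher genes became 0 in sham and 0 in BLM, and the 2 lower in sham became 1. The 5 called in the sorting test became 2 with total counts only, where calls over all genes went from 8386 to 4436. The cause of changes other than a scaling's own shift was not tested. Total counts only shifted each ratio by -0.26, -0.72 and 0.01 for BLM over sham (unsorted, then Lamp1-depleted, then Lamp1-enriched) and by -0.17 and 0.56 for the sorting in sham and BLM; among all genes past 2-fold the share that was higher then went from 46.6% to 32.4% in unsorted cells, from 38.1% to 12.7% in Lamp1-depleted cells and from 60.3% to 74.7% for the sorting in BLM. Of 50 ratios of the 10 genes, none changed sign with DESeq2 size factors and 7 did with total counts only, all of them under 2-fold. No replicate could be left out, since a condition has 1 library. The sorting test pairs the fractions by treatment only. For BLM against sham no paired analysis was possible because each group has a single library, so that no replicate numbers could serve as a block. Depth limits Gdf15 and Eda2r in the Lamp1-depleted libraries, at 23 to 122 reads.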
